A study of Mus musculus with 8 samples.

Results

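The lysosome is described here through 35 genes, out of 32285 gene identifiers counted, that encode its digestive enzymes and their activators, its membrane proteins, its proton pump and a pair of transcription factors that control it. The genes were matched by symbol from a list, and all 35 were found in the matrix. They fall into 7 cysteine proteases (Ctsb, Ctsc, Ctsh, Ctsl, Ctss, Ctsz, Lgmn), 3 other proteases (Ctsa, Ctsd, Tpp1), 7 sugar-cleaving enzymes (Gaa, Gla, Glb1, Gusb, Hexa, Man2b1, Neu1), 4 lipid enzymes and activators (Asah1, Grn, Lipa, Psap), 7 membrane proteins (Cd63, Cd68, Lamp1, Lamp2, Laptm5, Mcoln1, Scarb2), 2 transcription factors (Tfe3, Tfeb) and 5 proton pump components (Atp6ap1, Atp6v0c, Atp6v0d1, Atp6v1a, Atp6v1b2). They were followed across heart and blood, across classes of cells named from marker genes, and between recipients of marrow from stroke donors and from control donors.

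Cells that were CD45+ and CD11b+ had been sorted from the heart and blood of recipient mice. They were profiled in 4 libraries by droplet single-cell RNA sequencing, which counts unique molecular identifiers (UMIs) near the 3′ end of transcripts. Each library was taken as a single recipient mouse. This is an assumption, since the labels say of the replicates only that they are separate samples. All recipients carried Mx1Cre and floxed c-Myb alleles (Mx1Cre:c-Mybfl/fl), a combination that allows the host's blood-forming cells to be removed. After depletion, 2 of them had received bone marrow from donors with stroke and 2 from control donors. Since both groups carried the same alleles and both were transplanted, the control group is not an untouched animal. Mx1Cre acts in many cell types besides those of marrow, and macrophages that the heart already held can outlast a transplant, so a heart cell may come from host or donor. The sources used here give no sex or age. Transcripts of 2 fluorescent protein transgenes were also counted in the data, but they were left out here. Single cells were not assigned to host or donor.

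Lysosomes are acidic compartments in which cells break down proteins, sugars and lipids taken up from outside or delivered by autophagy. The vacuolar ATPase pumps protons across the membrane, and the low pH that results activates cathepsins and the other acid hydrolases. Heavily glycosylated proteins such as Lamp1 and Lamp2 line the membrane, and small activator proteins such as the saposins made from Psap present lipids to the enzymes. Macrophages are known for abundant lysosomes, which digest dying cells and debris. Neutrophils store part of these enzymes in granules made during their maturation in the marrow. Tfeb and Tfe3 are known to bind a short palindrome, CACGTG within a longer element, in the promoters of many lysosomal genes.

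Of the droplets, 9681 were kept, 4938 from heart and 4743 from blood, with 10059365 to 16482961 UMIs in genes per library. Organ was read from hashtag antibodies. Mouse was read from the number at the end of each barcode, which was matched to the sample numbers of the labels, and this match is an assumption that every marrow comparison rests on. Control replicate 1 held 599 UMIs of the Y-linked Ddx3y and 1 of Xist, whereas the other 3 libraries held 1 to 3 of Ddx3y and 6472 to 13794 of Xist. Between 1 and 5 barcode sequences were shared by each pair of libraries. Despite the CD11b gate, 1769 B cell-like and 658 NK cell-like barcodes were present, and Itgam, which encodes CD11b, reached levels of 35.6 to 76.7 per 1000000 UMIs in B cell-like cells and 319 to 419 in NK cell-like cells. B cell-like barcodes made up 976 of the 1298 blood barcodes of stroke replicate 2, so its other blood classes are small. Every value below is therefore given within a class where possible. A level is written in counts per 1000000 (CPM), a gene's UMIs scaled to 1000000 gene UMIs of that class in that mouse. UMIs are counted once per molecule at the 3′ end, so levels are not scaled by gene length. Values by mouse are in the order control replicate 1, control replicate 2, stroke replicate 1 and stroke replicate 2.

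Promoter sequences were read for 31 of the 35 genes from RefSeq windows on GRCm38.p6, from 250 bases before to 50 bases after each start. The 6-letter E-box CACGTG, which reads the same on both strands, lay in the window of 11 of the 31 genes (35.5%) and of 2187 of 27025 genes (8.09%). Its 8-letter extension TCACGTGA, which contains the first motif and is also its own reverse complement, lay in 6 of 31 (19.4%) and in 304 of 27025 genes (1.12%). Windows with TCACGTGA 2 or more times belonged to 2 of the 31 genes and to 18 of the 27025. The 11 genes were Atp6v0d1, Atp6v1a, Ctsa, Ctsd, Ctsl, Gaa, Gla, Glb1, Lamp1, Lgmn and Mcoln1. These counts describe letters and do not show binding. The 5 sequences below are of genes whose levels are followed in the results, read 5′ to 3′ on the strand of the gene from 250 bases before the start to 10 bases after it, with CACGTG or TCACGTGA in capitals. They lie at chrX:134600996-134601255 (Gla, minus strand), chr8:105566055-105566314 (Atp6v0d1, minus strand), chr16:44139250-44139509 (Atp6v1a, minus strand), chr7:142387818-142388077 (Ctsd, minus strand) and chr8:13158911-13159170 (Lamp1, plus strand).
Gla: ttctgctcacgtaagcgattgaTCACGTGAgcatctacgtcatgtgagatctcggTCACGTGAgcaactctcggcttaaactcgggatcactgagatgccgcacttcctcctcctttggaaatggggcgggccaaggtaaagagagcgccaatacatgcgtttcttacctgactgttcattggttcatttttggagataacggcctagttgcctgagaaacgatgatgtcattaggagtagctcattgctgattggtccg
Atp6v0d1: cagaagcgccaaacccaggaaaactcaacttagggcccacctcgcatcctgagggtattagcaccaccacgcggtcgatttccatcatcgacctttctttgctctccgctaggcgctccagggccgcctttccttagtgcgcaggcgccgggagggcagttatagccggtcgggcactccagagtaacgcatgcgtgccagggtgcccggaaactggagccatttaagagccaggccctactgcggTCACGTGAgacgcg
Atp6v1a: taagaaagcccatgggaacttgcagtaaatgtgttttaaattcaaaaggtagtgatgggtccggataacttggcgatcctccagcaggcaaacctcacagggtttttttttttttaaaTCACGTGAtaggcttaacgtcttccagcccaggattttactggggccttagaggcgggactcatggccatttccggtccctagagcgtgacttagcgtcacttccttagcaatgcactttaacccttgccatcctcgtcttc
Ctsd: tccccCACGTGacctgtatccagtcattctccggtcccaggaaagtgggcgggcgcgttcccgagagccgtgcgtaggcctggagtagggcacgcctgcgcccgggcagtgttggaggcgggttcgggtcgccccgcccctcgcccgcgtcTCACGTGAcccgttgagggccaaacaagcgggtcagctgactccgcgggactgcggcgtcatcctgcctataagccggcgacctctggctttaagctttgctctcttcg
Lamp1: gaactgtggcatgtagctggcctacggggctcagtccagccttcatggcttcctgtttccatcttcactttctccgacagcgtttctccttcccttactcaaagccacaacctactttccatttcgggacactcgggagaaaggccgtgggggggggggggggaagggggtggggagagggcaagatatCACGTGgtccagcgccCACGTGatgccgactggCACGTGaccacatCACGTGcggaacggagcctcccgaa

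In these sequences TCACGTGA occurred at 2 places in Gla, and at 1 place each in Atp6v0d1, Atp6v1a and Ctsd. Lamp1 held 4 copies of the shorter motif and none of the longer one. In heart against blood, Gla and Atp6v0d1 were higher in heart in neutrophil-like and classical monocyte-like cells, Atp6v1a was higher in heart neutrophil-like cells, and Ctsd was lower in both of these classes, as the values below show. Among these called genes only Ctsd was lower. Its calls were lost in 8 of 15 alternative analyses in neutrophil-like cells and in 4 of 15 in classical monocyte-like cells, where 1 more changed its sign. Calls of Atp6v1a in neutrophil-like and of Atp6v0d1 in classical monocyte-like cells were lost in 4 and 3 of 15. TCACGTGA also lay in the windows of Ctsa, called in none of the 3 myeloid classes, and Mcoln1, with too few counts to be tested there. Ctsl and Lgmn, which held the shorter motif, were higher in heart in 2 classes each. Lamp1 and Glb1, which also held it, were not called, and Gaa was not tested. Lamp2, higher in heart in all 3 classes, held no CACGTG. A link between these letters and the direction was not tested.

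Together the 35 genes held the largest part of the RNA in macrophage-like cells and a small part in lymphoid cells. In heart macrophage-like cells their share of all gene UMIs was 1.23%, 1.30%, 1.36% and 1.35% in the 4 mice, a mean of 1.31% ± 0.0587 (SD, n = 4). Classical monocyte-like cells followed with 1.13% ± 0.0337 in heart and 1.18% ± 0.0515 in blood (SD, n = 4). The ranges of macrophage-like and heart classical monocyte-like cells did not overlap, since the highest of the latter was 1.17%. Nonclassical monocyte-like cells came next with 0.963% ± 0.0387 in heart and 1.00% ± 0.0729 in blood (SD, n = 4), and dendritic cell-like cells held 0.771% ± 0.0807 and 0.782% ± 0.0233. Neutrophil-like cells held 0.445% ± 0.0318 in heart and 0.423% ± 0.0376 in blood, and in these classes the difference between the means of heart and blood was within the spread between mice. In classical monocyte-like cells the heart share was nevertheless below the blood share of the same mouse in all 4, at 1.09% against 1.10%, 1.17% against 1.19%, 1.14% against 1.19% and 1.11% against 1.22%. In nonclassical monocyte-like, dendritic cell-like and neutrophil-like cells the direction differed between mice. B cell-like cells (0.255% ± 0.0143 and 0.277% ± 0.0324) and NK cell-like cells (0.267% ± 0.017 and 0.254% ± 0.0181) were lowest, and these neighbours did not differ beyond their spreads.

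**Figure D1:**
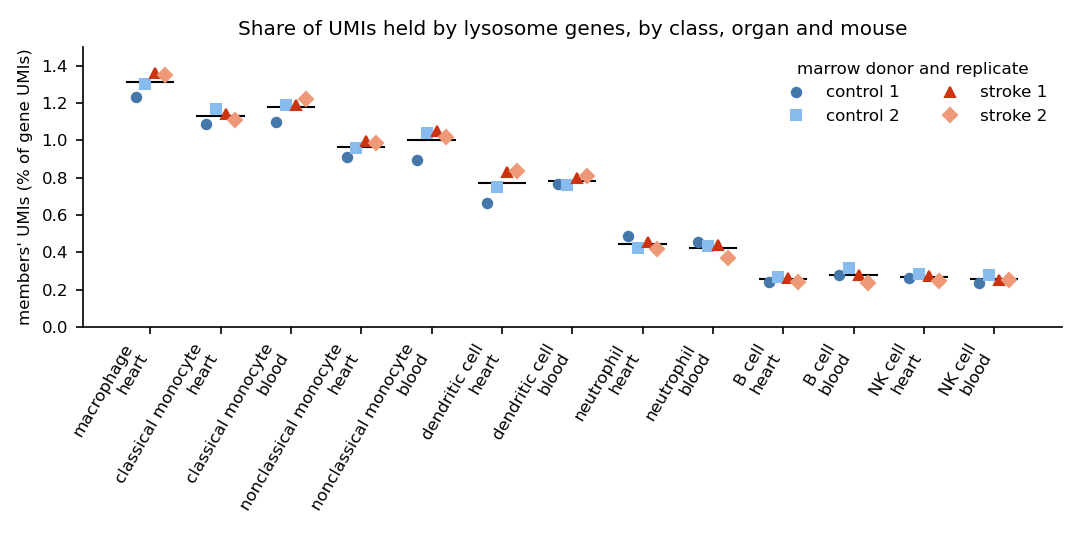
Share of all gene UMIs held by the 35 lysosome genes (% on the vertical axis) in each class and organ, with one point per mouse and a symbol for each marrow donor group and replicate. Heart macrophage-like cells lie highest, with 1.23% to 1.36%, and B and NK cell-like cells lowest.

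The genes behind these shares differed by class. Ctsb, the broad cysteine protease cathepsin B, stood at 1563 ± 129 CPM in heart macrophage-like cells and 1433 ± 143 in heart nonclassical monocyte-like cells (SD, n = 4), against 139 ± 43.5 in heart neutrophil-like cells. Psap, the precursor of the saposins, was highest in classical monocyte-like cells, with 2219 CPM in heart and 2235 in blood, against 1012 in heart macrophage-like cells. Ctss, which trims the invariant chain of MHC class II, also peaked in classical monocyte-like cells, with means of 1939 in heart and 2229 in blood. Both genes were lower in heart macrophage-like than in heart classical monocyte-like cells by edgeR's test, whose values follow further on.

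The profile of neutrophil-like cells differed from that of macrophage-like cells. Ctsd, the aspartic protease cathepsin D, was at 450 ± 38.1 CPM in heart and 682 ± 99.3 in blood neutrophil-like cells (SD, n = 4), above the 297 ± 8.09 of macrophage-like cells. Lamp2, a main glycoprotein of the lysosomal membrane, reached 714 ± 101 in heart neutrophil-like cells and 554 ± 47.8 in macrophage-like cells. Lgmn, an endopeptidase that cuts after asparagine, was at 410 ± 21.4 in macrophage-like cells and 2.68 ± 1.95 in heart neutrophil-like cells, where it rests on 3 UMIs in all. Levels of the other cysteine proteases were also low in neutrophil-like cells, where Ctss averaged 118 in heart and 71.1 in blood.

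Lymphoid cells differed in which proteases they held. B cell-like cells had 505 ± 74.8 CPM of Ctss in heart and 515 ± 41.7 in blood, and 22.2 ± 6.13 and 20.2 ± 8.27 of Ctsd (SD, n = 4). NK cell-like cells had 479 to 636 CPM of Ctsd over both organs and all mice. As in neutrophil-like cells, cysteine proteases were low in them, with a mean of 0.0249% of UMIs in heart beside 0.0515% in heart neutrophil-like cells. Laptm5, a lysosomal membrane protein of blood cells, was at 792 in heart NK cell-like cells, close to the 812 of macrophage-like cells. Mcoln1, the calcium channel of the lysosome, was low everywhere, with class means from 2.66 CPM in heart neutrophil-like cells to 10.5 in heart macrophage-like cells. Tfeb was highest in blood neutrophil-like cells (123 CPM) and lowest in heart dendritic cell-like (27.3) and macrophage-like (28.8) cells, while Tfe3 was highest in macrophage-like cells (70.5).

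**Figure D2:**
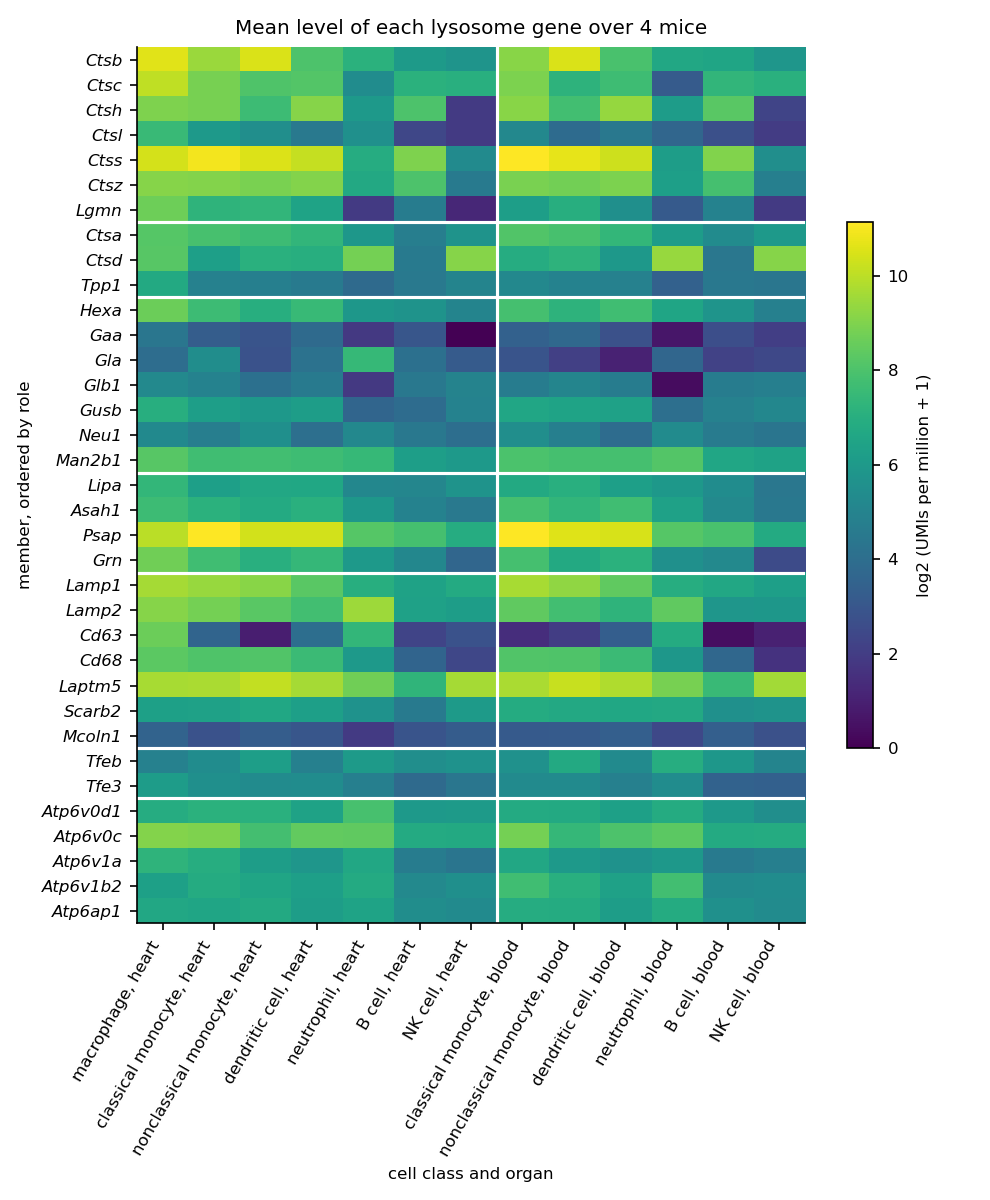
Mean level over 4 mice of each of the 35 lysosome genes (rows, ordered by role) in each class and organ (columns), as colour on a scale of log2 (CPM + 1). Psap and Ctss are high in monocyte-like columns, Ctsb in macrophage-like and nonclassical monocyte-like columns, and Ctsd in neutrophil-like and NK cell-like columns.

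The first comparison set heart against blood within a class and within mice, and asks which lysosome genes differ between a cell type in the organ and its counterpart in the circulation. In classical monocyte-like cells 8 genes were higher in heart and 3 lower, of 32 that passed the filter on low counts. In nonclassical monocyte-like cells 6 of 29 were higher and 1 lower, and in neutrophil-like cells 8 of 28 were higher and 4 lower. Over all genes tested, 12.4% were higher and 5.44% lower in classical monocyte-like, 10.3% and 6.48% in nonclassical monocyte-like, and 14.4% and 8.38% in neutrophil-like cells. These calls are at an adjusted p under 0.05 from edgeR's quasi-likelihood test with mouse as a block, and every difference below is a log2 fold change from such a fit. The fit rescales libraries by TMM, which CPM does not, so a fold change can differ in size from the ratio of the CPM values printed beside it. The SE given with a fold change is its absolute size divided by the square root of the test's F statistic. Over the 3 classes 18 of the 35 genes were called at least once, and none was higher in one class and lower in another. Gaa and Mcoln1 passed the low-count filter in none of these classes, and Ctsl, Gla and Lgmn passed it in only 2. Lamp2 was higher in heart in all 3 classes, Atp6v0c, Atp6v0d1, Ctsb, Ctsl, Ctsz, Gla and Lgmn in 2, and Asah1, Atp6v1b2 and Ctsd were lower in 2.

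Heart and blood cells of a class were not the same cells in another respect. In the clustering, which left lysosome genes out of the genes it used, 290 of 323 heart classical monocyte-like barcodes were in a cluster led by Thbs1, F10, Nr4a2 and Il6, and 1036 of 1081 blood ones in a cluster led by Chil3, Fn1 and Vcan. Of nonclassical monocyte-like barcodes, 553 of 709 in heart and 484 of 487 in blood were in different clusters, as were 427 of 434 and 1072 of 1074 of neutrophil-like barcodes. Only the heart was made into a suspension from solid tissue, so the organ and its preparation cannot be told apart. Summed levels of 10 macrophage markers were 2302 to 4045 CPM in heart and 2251 to 3845 in blood classical monocyte-like cells, 5163 to 6170 and 5290 to 5388 in nonclassical monocyte-like cells, and 528 to 803 and 348 to 463 in neutrophil-like cells, with 30030 to 41570 in macrophage-like cells themselves. Of the macrophage markers tested, 3 of 6, 3 of 5 and 3 of 5 were higher in heart in these classes, and Mertk was at 0 in heart nonclassical monocyte-like and neutrophil-like cells. Markers of classical monocytes were lower in heart in 5 of 6 tested in classical and 3 of 3 in nonclassical monocyte-like cells, and higher in 2 of 2 in neutrophil-like cells. Markers of nonclassical monocytes were higher in heart in 3 of 5, 1 of 6 and 1 of 1. The part of these markers in the lysosome results was not tested. With barcodes holding 2 or more C1q UMIs left out, 11, 7 and 10 lysosome genes were called.

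The widest difference was in Gla, which encodes alpha-galactosidase A, the enzyme that removes the end galactose from glycosphingolipids. In heart neutrophil-like cells it stood at 219, 201, 155 and 126 CPM, and in blood ones at 0, 11.7, 12.5 and 22.6, where a count of 0 allows up to 3.65 CPM. The heart values were all above the blood values, by 4.67 on the log2 scale (SE 0.44, edgeR adjusted p = 4.5e-07). The heart signal came from 166 UMIs in 117 of 434 barcodes and the blood signal from 16 UMIs in 15 of 1074. In classical monocyte-like cells Gla was at 35.6, 46.9, 31.5 and 56.3 CPM in heart and 1.95, 6.79, 5.31 and 11.4 in blood. Heart was again higher in every mouse, by 2.93 (SE 0.36, edgeR adjusted p = 3.3e-08), with 77 UMIs in 62 of 323 heart barcodes and 33 UMIs in 33 of 1081 blood barcodes. In heart macrophage-like cells, by contrast, Gla averaged 14.5 CPM.

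Among cysteine proteases, Ctsl and Lgmn were higher in heart in 2 classes each. Ctsl, cathepsin L, was at 43.8, 37.4, 53.8 and 55.1 CPM in heart neutrophil-like cells and 14.6, 11.7, 20.9 and 0 in blood, where 0 allows up to 33.8 in that small sample. The difference was 1.89 (SE 0.41, edgeR adjusted p = 0.00259). It was 0.89 in classical monocyte-like cells (SE 0.20, edgeR adjusted p = 0.000721), with 44.5, 78.1, 72.7 and 52.8 in heart against 29.3, 46.0, 43.7 and 25.6 in blood. Heart was higher in each of the 4 mice in both classes, although control replicate 1 in heart lay below the blood value of control replicate 2 in classical monocyte-like cells. In nonclassical monocyte-like cells Ctsl did not pass the low-count filter, with 47.8, 48.2, 60.6 and 22.4 in heart and 16.5, 13.7, 14.2 and 10.5 in blood.

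Lgmn in classical monocyte-like cells was at 173, 188, 138 and 96.8 CPM in heart and 55.3, 79.4, 69.9 and 91.0 in blood. The groups did not overlap, although stroke replicate 2 came close, and the difference was 1.20 (SE 0.16, edgeR adjusted p = 3.3e-07). In nonclassical monocyte-like cells the difference in Lgmn was 0.51 (SE 0.14, edgeR adjusted p = 0.0045), and there the heart and blood values of stroke replicate 2 were 182 and 189. Ctsc, the dipeptidyl peptidase that activates granule serine proteases, was the most clearly different cysteine protease of nonclassical monocyte-like cells. Its levels there were 332, 273, 230 and 224 CPM in heart and 102, 156, 182 and 142 in blood, which did not overlap, and the difference was 0.91 (SE 0.12, edgeR adjusted p = 1.01e-10). Ctsb was higher in heart by 0.41 in classical monocyte-like cells (SE 0.08, edgeR adjusted p = 0.000193) and by 0.63 in neutrophil-like cells (adjusted p = 0.0393), where the call was lost in 8 of 15 alternative analyses. Ctsz, a carboxypeptidase, was higher by 0.28 and 0.24 in classical and nonclassical monocyte-like cells, calls that were lost in 6 and 8 of 15 alternatives. Ctss was higher by 1.07 in heart neutrophil-like cells (SE 0.23, edgeR adjusted p = 0.00276), where 1 barcode held 15.6% of the 122 UMIs.

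Other proteases and lipid enzymes moved the other way where they moved. Ctsd in neutrophil-like cells was at 423, 496, 415 and 468 CPM in heart and 757, 770, 635 and 564 in blood. Blood was above heart throughout, and the difference was -0.36 (SE 0.11, edgeR adjusted p = 0.034), a call lost in 8 of 15 alternatives. In classical monocyte-like cells Ctsd was at 84.5, 76.2, 72.7 and 73.9 in heart against 112, 116, 103 and 142 in blood, a difference of -0.50 (SE 0.16, edgeR adjusted p = 0.0212). The classical monocyte-like call was lost in 4 alternatives and changed sign in another: with organ taken from the ratio of the hashtags it was 0.08 (edgeR adjusted p = 0.853). Asah1, the acid ceramidase, was lower in heart by -0.57 in classical (SE 0.13, edgeR adjusted p = 0.00103) and -0.38 in nonclassical monocyte-like cells (adjusted p = 0.0455). The first call held in all 15 alternatives and the second was lost in 11. Its classical monocyte-like levels were 102, 186, 107 and 158 in heart and 232, 236, 228 and 222 in blood, which did not overlap. Ctsa, Tpp1, Grn, Lipa and Psap were called in none of the 3 classes, of which Tpp1 was tested in 2.

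Of the other sugar-cleaving enzymes, Neu1 and Man2b1 were called in these classes. Neu1, the lysosomal sialidase, was higher in heart nonclassical monocyte-like cells by 0.71 (SE 0.26, edgeR adjusted p = 0.0475), with 50.3, 44.1, 40.0 and 49.9 CPM in heart and 21.3, 32.8, 37.0 and 15.8 in blood, and the call was lost in 7 of 15 alternatives. Man2b1, an alpha-mannosidase, was lower in heart neutrophil-like cells by -0.51 (SE 0.16, edgeR adjusted p = 0.0319).

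Lamp2 was the membrane protein that differed most widely. In neutrophil-like cells it was at 854, 720, 660 and 624 CPM in heart and 299.6, 341, 334 and 384 in blood, with no overlap and a difference of 1.35 (SE 0.13, edgeR adjusted p = 7.4e-07). The difference was 0.56 in classical (SE 0.10, edgeR adjusted p = 2.04e-05) and 0.69 in nonclassical monocyte-like cells (SE 0.11, edgeR adjusted p = 2.29e-08). Cd63, a tetraspanin of late endosomes and granules, was higher in heart neutrophil-like cells by 0.75 (adjusted p = 0.00571), although its 4 heart values, 270, 93.5, 200 and 101, overlapped the blood values of 161, 89.2, 144 and 67.7 and the call was lost in 5 of 15 alternatives. Scarb2, the receptor that carries glucocerebrosidase to lysosomes, was lower in heart neutrophil-like cells by -0.84 (SE 0.24, edgeR adjusted p = 0.0168). Lamp1, Cd68 and Laptm5 were not called in any of the 3 classes, nor were Tfeb and Tfe3. Mcoln1 did not pass the low-count filter in any of them and was not tested.

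The proton pump components did not move together. Atp6v0d1, a subunit of the membrane part, was at 314, 150, 233 and 251 CPM in heart neutrophil-like cells and 93.8, 117, 123 and 124 in blood, a difference of 1.28 (SE 0.20, edgeR adjusted p = 0.000171). Atp6v1b2, a subunit of the part that splits ATP, was at 94.9, 88.8, 137 and 119 in heart and 229, 237, 203 and 192 in blood. Its difference of -0.69 (SE 0.18, edgeR adjusted p = 0.0119) had the opposite sign, and neither gene's heart and blood values overlapped. In classical monocyte-like cells the same pair differed by 0.47 and -0.72 (edgeR adjusted p = 0.00951 and 5.72e-05). Atp6v1a, the catalytic subunit, was higher in heart neutrophil-like cells by 0.85 (adjusted p = 0.022). Atp6v0c, the ring that carries the protons, was higher in heart by 0.30 in classical and 0.45 in nonclassical monocyte-like cells (edgeR adjusted p = 0.0115 and 0.0021), and Atp6ap1 was not called.

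**Figure D3:**
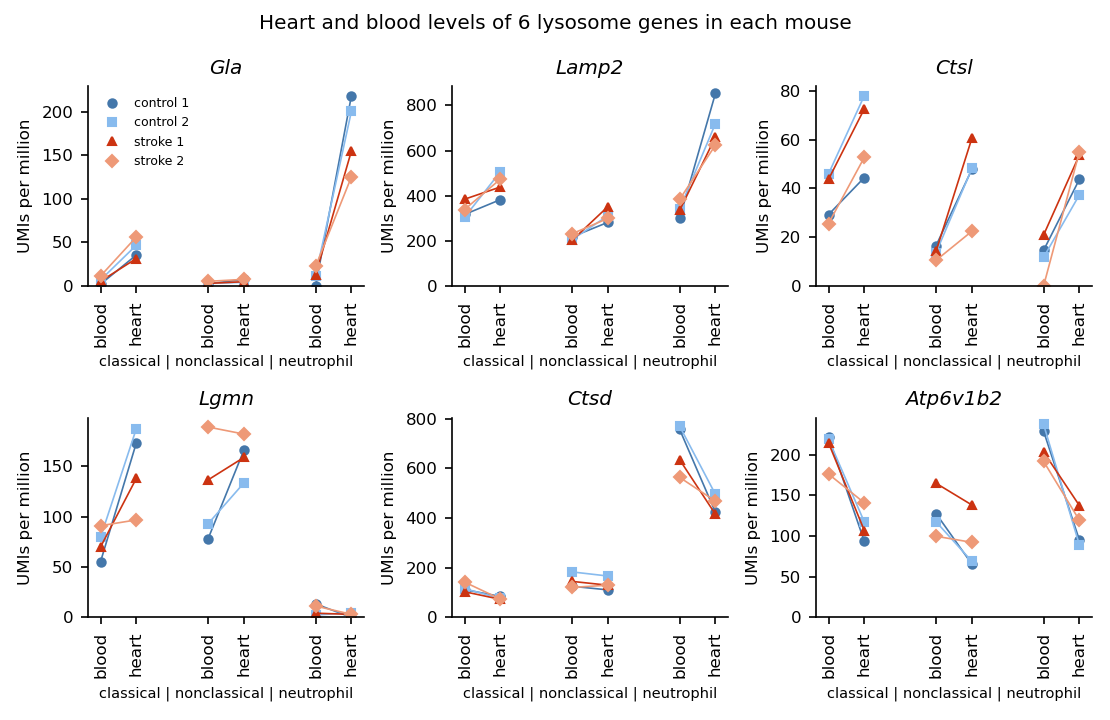
Levels in CPM (vertical axis, from 0) of 6 lysosome genes in blood and heart of each mouse, with lines joining the samples of one mouse, for classical monocyte-like, nonclassical monocyte-like and neutrophil-like cells. Gla and Lamp2 rise from blood to heart in every mouse in neutrophil-like cells, while Ctsd and Atp6v1b2 fall in every mouse there.

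In lymphoid cells the number of such differences depended on which barcodes were kept. In B cell-like cells 1 of 28 genes tested was called, Lamp2, at 80.1, 81.4, 82.2 and 85.3 CPM in heart and 46.4, 80.4, 53.1 and 49.2 in blood, a difference of 0.73 (SE 0.17, edgeR adjusted p = 0.0106). Over all genes 5.66% were higher and 3.64% lower in heart B cell-like cells, and Gla, which did not pass the filter there, was at 16.9, 17.3, 18.6 and 11.5 in heart and 3.09, 0, 9.66 and 1.67 in blood. In NK cell-like cells 0 of 12 genes were called by edgeR, 0 had an unadjusted p under 0.05 and 0 were called by DESeq2, while 6.81% of all genes were called. Without stroke replicate 2 there were 3 calls in B cell-like cells and 1 in NK cell-like cells, and without control replicate 1 there were 0 in B cell-like cells. The stricter cell filter gave 11 calls in B cell-like cells, and removing hashtag doublets alone gave 3 in NK cell-like cells.

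The counts in myeloid cells also depended on single mice and on the tool. Without control replicate 1 there were 4 calls in nonclassical monocyte-like cells, and without stroke replicate 1 or control replicate 2 there were 7 in neutrophil-like cells. DESeq2 called 7, 2 and 5 genes in classical monocyte-like, nonclassical monocyte-like and neutrophil-like cells, and in neutrophil-like cells these were Gla, Lamp2, Ctsl, Atp6v0d1 and Ctss. Over all genes DESeq2 also called fewer, 545, 368 and 444 against 1084, 904 and 792 by edgeR.

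Within the heart, macrophage-like cells were set against the other myeloid classes of the same mice. Lysosome genes were kept out of the genes used for clustering, but other genes of these cells were not, so the share of all genes called stands beside each count. Against classical monocyte-like cells 17 of 34 genes were higher in macrophage-like cells and 6 lower, where 22.5% and 22% of all genes were. Against nonclassical monocyte-like cells 22 of 35 were higher and 4 lower (all genes 28.2% and 26.4%), and against neutrophil-like cells 22 of 34 were higher and 6 lower (all genes 45.8% and 24.8%). The median log2 difference of the genes tested was 0.31, 0.75 and 1.37, beside 0.06, 0.04 and 0.63 over all genes. All these tests are edgeR's quasi-likelihood test with mouse as a block.

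Higher genes were found among proteases and among enzymes of sugars and lipids. Of the 7 cysteine proteases 4, 4 and 7 were higher in macrophage-like cells against classical monocyte-like, nonclassical monocyte-like and neutrophil-like cells. Ctsl was higher by 1.48, 1.93 and 1.41, and Ctsc by 1.10, 1.96 and 4.12. Ctsb was higher by 1.08 against classical monocyte-like cells (SE 0.07, edgeR adjusted p = 3.17e-10), but differed by 0.07 from nonclassical monocyte-like cells (adjusted p = 0.431). Ctss was lower than in classical monocyte-like cells by -0.59 (SE 0.07, edgeR adjusted p = 9.71e-07). Lgmn was higher by 1.41 and 1.32 than in the monocyte-like classes. Its pooled level was 137 times that of neutrophil-like cells, from 4675 UMIs against 3 (exact binomial 95% interval 46.9 to 666, covering counting error only).

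Ctsd was at 286, 304, 295 and 303 CPM in macrophage-like cells and 84.5, 76.2, 72.7 and 73.9 in classical monocyte-like cells, a difference of 1.90 (SE 0.12, edgeR adjusted p = 2.06e-10). Against neutrophil-like cells it was lower by -1.10 (SE 0.15, edgeR adjusted p = 6.7e-08), with no overlap in either comparison. Tpp1, a tripeptidyl peptidase, was higher by 1.72, 1.89 and 2.54 in the 3 comparisons.

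Among enzymes of sugars and lipids most were higher in macrophage-like cells. Hexa, a subunit of beta-hexosaminidase, was higher by 0.96, 1.58 and 2.35, and Gusb, beta-glucuronidase, by 0.69, 0.97 and 2.98. Glb1 and Gaa, which act on galactosides and glycogen, had pooled levels 19.2 times (95% interval 5.27 to 159) and 10.1 times (2.76 to 83.8) those of neutrophil-like cells, each resting on 2 neutrophil-like UMIs. Gla ran against the others, lower by -1.69 against classical monocyte-like (SE 0.26, edgeR adjusted p = 2.12e-05) and -4.08 against neutrophil-like cells (SE 0.21, edgeR adjusted p = 1.73e-17), and higher by 1.30 than in nonclassical monocyte-like cells. Grn, progranulin, was higher by 0.96, 1.65 and 2.29, and Lipa, the acid lipase, by 1.04, 0.67 and 1.70. Psap was lower than in both monocyte-like classes, at 1147, 937, 980.1 and 982 CPM against 2295, 2281, 2178 and 2121 in classical monocyte-like cells (difference -1.22, SE 0.07, edgeR adjusted p = 1.93e-11).

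Cd63 separated macrophage-like from monocyte-like cells most widely. It was at 328, 384, 428.5 and 427 CPM in macrophage-like cells and 26.7, 5.86, 12.1 and 0 in classical monocyte-like cells, where 0 allows up to 5.28, a difference of 5.51 (SE 0.29, edgeR adjusted p = 1.04e-11). Against nonclassical monocyte-like cells the pooled ratio was 474 (95% interval 131 to 3920), from 4642 UMIs against 2. Cd68, a membrane protein widely used as a macrophage marker, differed by 0.17 and 0.16 from the monocyte-like classes (edgeR adjusted p = 0.133 and 0.151). Tfeb was lower in macrophage-like cells by -0.64, -1.41 and -1.76, while Tfe3 was higher by 0.54, 0.81 and 0.85, all passing the test. Of the 5 proton pump components, 0, 2 and 0 were higher and 2, 0 and 2 lower in the 3 comparisons, and Atp6v0d1 and Atp6v1b2 were the lower ones. The call of Atp6v0d1 against classical monocyte-like cells was lost in 6 of 15 alternatives.

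**Figure D4:**
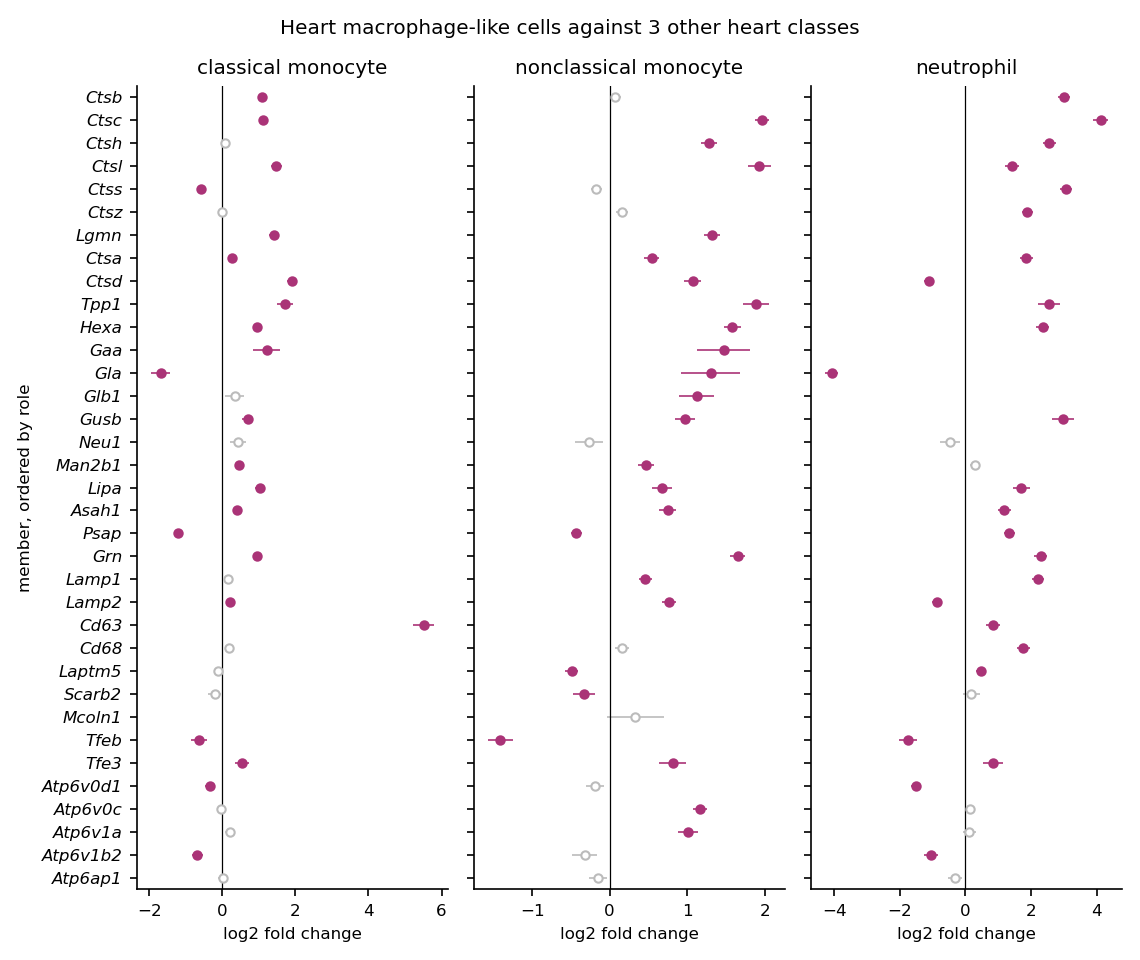
Log2 fold changes (horizontal axis) with standard errors as bars of the lysosome genes tested, ordered by role, for heart macrophage-like cells against heart classical monocyte-like, nonclassical monocyte-like and neutrophil-like cells, one panel each. Not drawn are Cd63 in the nonclassical panel and Gaa, Glb1, Lgmn and Mcoln1 in the neutrophil panel, which rest on 2 or 3 UMIs in those classes. Filled points passed edgeR's test at an adjusted p under 0.05, and proteases lie mostly to the right of 0 while Tfeb lies to the left in all 3 panels.

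The macrophage-like cells of the heart are known to include a resident type marked by Lyve1, Timd4 or Folr2. A UMI of any of these was found in 1492 barcodes and not in 687, and 208 of the former held exactly 1 such UMI and so lie at the edge of the split. The share of RNA in lysosome genes differed by less than the spread between mice, at 1.31% ± 0.056 and 1.30% ± 0.0729 (SD, n = 4). Single genes differed: 7 were higher and 5 lower in cells with these UMIs, of 35 tested, beside 7.98% and 10.1% of all genes.

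Grn differed most, at 424, 471, 475 and 514 CPM with and 277, 265, 298 and 299 without resident UMIs, a difference of 0.69 (SE 0.07, edgeR adjusted p = 5.51e-08). Ctsl was higher by 0.48, Lamp1 by 0.42 and Ctsb by 0.39, and Tpp1, Lamp2 and Ctsc by 0.33, 0.22 and 0.19. The calls of Tpp1, Lamp2 and Ctsc were lost in 5, 6 and 13 of 15 alternatives. Ctss was the most clearly lower, at 978, 1239, 1425 and 1284 with and 1390, 1699, 1843 and 1898 without (difference -0.51, SE 0.05, edgeR adjusted p = 5.1e-08). It was lower with resident UMIs in each mouse, although the sets overlapped between mice. Psap was lower by -0.48, Ctsz by -0.46, Ctsh by -0.43 and Cd68 by -0.24, of which the call of Cd68 was lost in 7 of 15. Among cathepsins Ctsb and Ctsl were thus higher and Ctsh, Ctss and Ctsz lower.

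Cells with such a UMI were deeper, with median UMIs of 4914 to 5778 against 3656 to 5266 in the others. Markers of other cells moved along, with all 5 B cell markers tested, 3 of 3 cardiomyocyte and 2 of 4 neutrophil markers lower in cells with resident UMIs, and 7 of 10 macrophage markers higher. The summed level of 6 classical monocyte markers was also higher with resident UMIs in every mouse. It was 4182, 3513, 3437 and 3977 CPM with and 1441, 1208, 868.1 and 935.2 without them. A sum does not show which of the 6 genes carried the difference. The part of all these markers in the result was not tested.

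The marrow groups were compared last, to see whether lysosome genes differ with the stroke of the donor. By edgeR's test no lysosome gene was called in any of 8 comparisons of stroke against control marrow, in all heart cells, in 4 heart classes and in 3 blood classes, and DESeq2 called 0 as well. Of all genes, edgeR called 0.0239% in all heart cells, 0% in macrophage-like, 0.0351% in classical monocyte-like, 0% in nonclassical monocyte-like and 0% in neutrophil-like cells of the heart. In blood it called 0.0114%, 0% and 0.0209% in classical monocyte-like, nonclassical monocyte-like and neutrophil-like cells. At an unadjusted p under 0.05 there were 6 lysosome genes in all heart cells, 0 in macrophage-like, 1 in classical monocyte-like, 3 in nonclassical monocyte-like and 0 in neutrophil-like cells of the heart, and 0, 1 and 0 in the blood classes. Of all genes tested, 8.04%, 4.27%, 5.22%, 4.55%, 3.18%, 3.80%, 4.05% and 2.09% were under that value in the same order. Groups of 2 mice do not allow an exact permutation p below 0.333 for a single value, two-sided. Nothing in the labels says more of the replicates than that they are separate samples. Control replicate 1 alone held many UMIs of the Y-linked Ddx3y (599) and almost none of Xist (1). The control group thus mixed a male-type and a female-type library, and the stroke group did not. The part of this in the marrow comparisons was not tested. Atp6ap1, Gla, Lamp2 and Tfe3 lie on the X chromosome.

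In all heart cells 27 of the 35 genes were above both control mice in both stroke mice and 1, Tfeb, was below, where 19.7% and 21.4% of all genes were. Cd63 was at 149, 209, 277 and 238 CPM (difference 0.53, SE 0.18, edgeR adjusted p = 0.597), and Atp6ap1, an accessory subunit of the pump, at 75.4, 72.9, 97.8 and 98.7 (difference 0.41, adjusted p = 0.593). Stroke mice were higher for both genes, without overlap. The median difference was 0.29 for the 35 genes and -0.01 for all genes. Macrophage-like barcodes were 215 of 675, 625 of 1462, 742 of 1526 and 597 of 1275 heart barcodes in the 4 mice, and the 10 macrophage markers summed to 12060, 21320, 24560 and 23230 CPM. Other cells shifted too. B cell-like barcodes were 20.3%, 12.0%, 3.93% and 11.8% of heart barcodes, and the median differences of marker lists were 0.947 for neutrophils, -0.996 for B cells and -1.10 for dendritic cells, with 0 of these markers called. All 3 genes called by edgeR in all heart cells were erythroid markers. In a sum over all cells, another mix of cells and another amount of lysosomal RNA per cell cannot be told apart. Without control replicate 2, Cd63 (0.79) and Grn (0.73) were called by edgeR, and without control replicate 1 they were at 0.32 and 0.23 and not called.

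Within heart macrophage-like cells the median difference was 0.07, beside 0.00 for all genes, and 16 of 35 genes were above and 3 below, where 14.8% and 17.9% of all genes were. Cd63 was at 328, 384, 428.5 and 427 CPM (difference 0.28, edgeR adjusted p = 0.999). Ctss was at 1152, 1351, 1528 and 1445 (0.26), Ctsb at 1375, 1585, 1662 and 1631 (0.17) and Grn at 362, 421, 432 and 458 (0.19), with the same adjusted p. In each of these 4 genes both stroke mice were above both control mice, and control replicate 1 was lowest. The 3 genes below were Ctsc, Ctsl and Gla, and the range over all 35 was -0.44 (Gla) to 0.39 (Glb1).

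**Figure D5:**
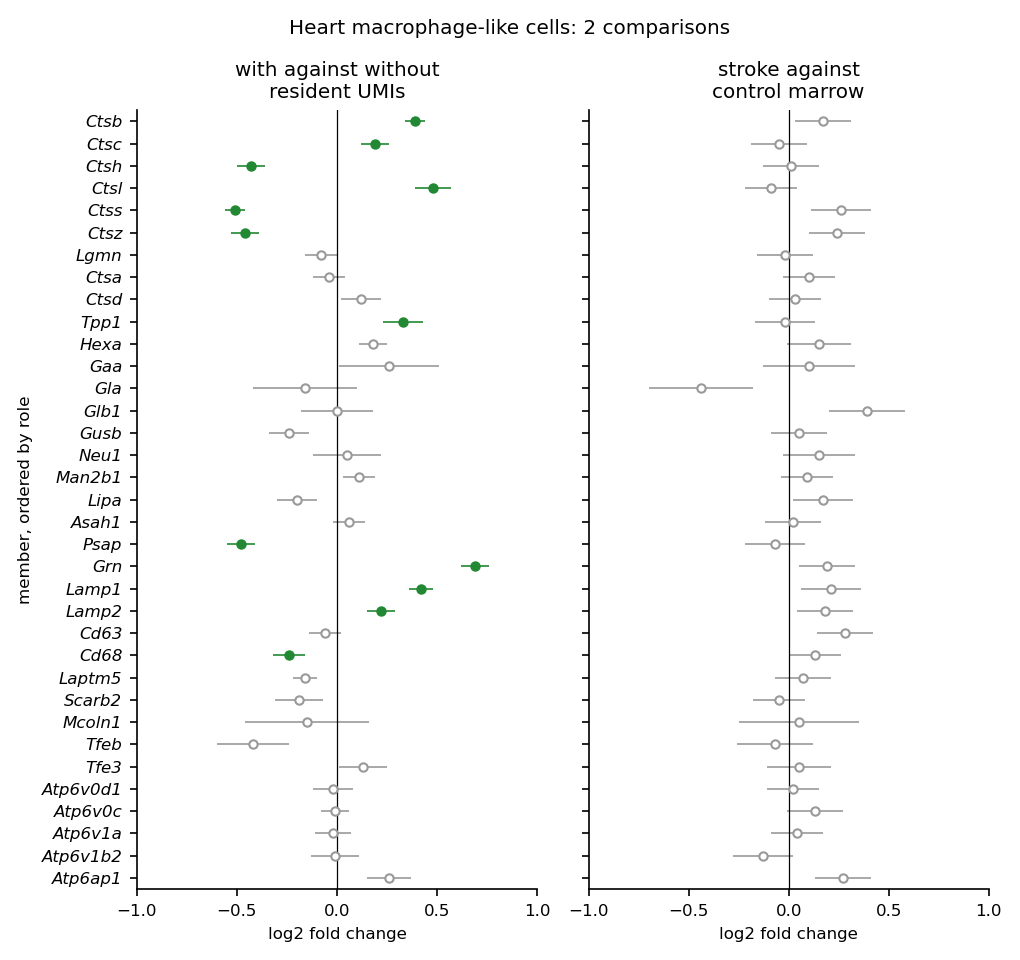
Log2 fold changes (horizontal axis) with standard errors as bars of the 35 lysosome genes in heart macrophage-like cells, in one panel for cells with against without Lyve1, Timd4 or Folr2 UMIs and in the other for stroke against control marrow. Filled points passed edgeR's test at an adjusted p under 0.05, with 12 in the first panel and 0 in the second.

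In the other classes the medians of stroke against control marrow were -0.04, -0.01 and 0.08 in heart classical monocyte-like, nonclassical monocyte-like and neutrophil-like cells, and 0.02, 0.02 and 0.01 in the blood classes. Whether heart against blood differed between marrow groups was tested by an interaction term in edgeR. It called 0 lysosome genes in classical monocyte-like, nonclassical monocyte-like and neutrophil-like cells, with 1, 3 and 1 at an unadjusted p under 0.05 and 0 by DESeq2, and 0.0148%, 0% and 0.0966% of all genes. At an unadjusted p under 0.05 there were 4.16%, 4.39% and 3.38% of all genes tested. Without control replicate 2, the interaction called Ctsc in nonclassical monocyte-like cells (-1.26) and Gla in neutrophil-like cells (-5.90), and Ctsb (1.40) was called for stroke against control marrow in blood neutrophil-like cells.

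A further list of 96 lysosome genes outside the 35 gave the surroundings of these results. In heart against blood, 6 were higher and 5 lower of 66 tested in classical monocyte-like, 5 and 3 of 62 in nonclassical monocyte-like and 4 and 5 of 37 in neutrophil-like cells. Slc11a1, a metal transporter of the phagosome membrane, was higher in heart in all 3 classes, by 0.88, 0.95 and 1.09 (edgeR adjusted p = 0.000423, 1.63e-10 and 0.00019). Atp6ap2, the other accessory protein of the pump, was higher by 0.83 and 0.90 in the monocyte-like classes, and Sort1, a sorting receptor, was lower by -0.96 in classical monocyte-like cells. In B cell-like cells 2 were higher and 2 lower of 56 tested.

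Macrophage-like cells had 23 higher and 17 lower of 84 against classical monocyte-like, 38 and 19 of 84 against nonclassical monocyte-like and 43 and 17 of 83 against neutrophil-like cells. Sort1 was among the lower ones, by -2.61 and -4.30 against the monocyte-like classes. The pooled level of Ctsf, cathepsin F, was 17.0 times that of classical monocyte-like cells (95% interval 5.78 to 83.0), resting on 342 UMIs against 3. Between cells with and without resident UMIs 8 were higher and 11 lower of 82, with Acp5, an acid phosphatase, lower by -1.54 and Tfec, a relative of Tfeb, higher by 1.46. For stroke against control marrow 0 of these genes were called by edgeR or DESeq2 in any of the 8 comparisons, and 0 to 11 per comparison had an unadjusted p under 0.05 in edgeR. The 11 were of 96 tested in all heart cells, where 8.04% of all genes were under that value.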

How the data were processed

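The authors deposited UMI counts per gene and hashtag in 2020 to 3303 droplets of each of 4 libraries, with no normalization. They were made with Cell Ranger 7.1.0 on build mm10, per the submitters' processing notes. Heart and blood cells of a mouse shared a library, and organ was called from the hashtags with HTODemux (Seurat 5.3.0, quantile 0.99). Barcodes with under 200 genes or over 10% mitochondrial UMIs, hashtag doublets and negatives, and Scrublet doublets (expected rate 6%, one score threshold of 0.25 set after seeing the data) were removed.

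Cells were clustered with scanpy 1.11.5 and leidenalg 0.10.2 (2000 variable genes, 30 components, 20 neighbours, resolution 1). Lysosome genes were barred from that gene set. Each cluster got its name by marker lists, and the limits of the naming score were set after seeing the data. UMIs were summed per mouse, organ and class, in classes with 20 or more barcodes in every mouse. No comparison was set for dendritic cell-like cells, which passed this limit and are described without a test. The sums were tested over all genes with edgeR 4.0.16 (R 4.3.3; filterByExpr, TMM, quasi-likelihood, Benjamini-Hochberg at 0.05), with mouse as a block where both sums come from the same mice. Libraries held 10059365 to 16482961 UMIs, but precision depends on the number of mice and on the UMIs in each sum. The smallest sum held 87739 UMIs, in heart NK cell-like cells of stroke replicate 2. Floors of 3 counts and intervals cover counting error only. The p-values set a difference against the spread between these samples, which edgeR moderates with information from all genes.

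Alternatives were DESeq2 1.42.0, other size factors, filters, doublet and organ calls, clusterings, replicate blocks and leaving out each mouse. Scripts were checked on simulated data. The 35 genes, the other lists and the tests were chosen with earlier results of these data known. Any of the 35 could be named. The rule gave values by mouse for up to 10 called genes a comparison and 13 fixed genes. Here they are given for the genes the results turn on, and others by fold change.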

Additional observations from a re-analysis of the deposited data

Results flagged for a closer look

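In 3 genes the difference between heart and blood had opposite signs in different classes, with every one of the 4 mice moving one way in one class and the other way in the other, and at least one of the differences called by edgeR. The difference between classes was not tested in any of them. Ctss, cathepsin S, was higher in heart neutrophil-like cells by 1.07 on the log2 scale, with a higher level in heart in all 4 mice. In classical and nonclassical monocyte-like cells its differences were -0.07 and -0.07, which were not called, and its level in CPM was lower in heart in all 4 mice. One barcode held 15.6% of the Ctss UMIs of heart neutrophil-like cells. Ctsb, cathepsin B, was 0.41 in classical monocyte-like cells, which was called, and -0.28 in B cell-like cells, which was not. Neu1, the sialidase, was 0.71 in nonclassical monocyte-like cells, which was called but lost in 7 of 15 alternatives, and -0.53 in classical monocyte-like cells, which was not.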

How the results depend on the processing

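Of 120 calls of lysosome genes over the comparisons, 87 held under every alternative run and 33 were lost under at least one. One changed sign: Ctsd in classical monocyte-like cells was 0.08 with organ from the hashtag ratio, and the cause was not tested. DESeq2 called 7, 2 and 5 genes in heart against blood in classical monocyte-like, nonclassical monocyte-like and neutrophil-like cells, where edgeR called 11, 7 and 12, and 0 in B cell-like cells. With the mouse term left out (no replicate block) nonclassical monocyte-like cells had 3. In B cell-like cells, where edgeR called 1, there were 2 without the low-count filter, 2 with hashtag doublets alone removed and 11 with the stricter cell filter. In NK cell-like cells, where edgeR called 0, these gave 1 (Lipa, no low-count filter) and 3 (Ctsb, Ctss and Lamp1, hashtag doublets alone removed), and the automatic Scrublet threshold gave 1 (Lamp1). In neutrophil-like cells 18 were called with hashtag doublets alone removed. Stroke against control marrow in all heart cells gave 1 without the low-count filter (Cd63).

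Leaving out each mouse gave 8 to 10 calls in classical monocyte-like, 4 to 5 in nonclassical monocyte-like, 7 to 11 in neutrophil-like, 0 to 3 in B cell-like and 0 to 1 in NK cell-like cells for heart against blood. It gave 0 to 2 for stroke against control marrow in all heart cells, 0 to 1 in blood neutrophil-like cells, and 0 to 1 for the interaction in nonclassical monocyte-like and neutrophil-like cells. With 1 mouse left in a group, that mouse is assumed to vary like the others. With replicate number as a block (replicate block) 0 lysosome genes were called in all 8 marrow comparisons. Same-numbered mice deviated with correlations of -0.323 in all heart cells and -0.0420 to 0.121 elsewhere. Each sets the difference between the control mice against that between the stroke mice, over genes. With so few mice it cannot decide whether the numbers pair them. A crossed pairing, added after seeing the data, also gave 0 in all 8. Other size factors shifted the median of all genes by at most 0.085.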

Other observations

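No comparison was set for some classes, which are described here without a test. An unnamed cluster of 151 heart barcodes gave 1.09% of its UMIs to the 35 lysosome genes, with a median of 7563 UMIs per barcode, against 1.33% and 4755 in heart macrophage-like cells. Its leading genes included the neutrophil markers Il1r2 and G0s2, and heart neutrophil-like barcodes had a median of 2146 UMIs. Of all unnamed heart barcodes, which include another cluster, 6 of 17, 12 of 38, 15 of 78 and 10 of 60 in the 4 mice held under 2 C1q UMIs. Whether these droplets mix cells was not tested. In heart, the share was 0.543% in 21 fibroblast-like, 0.327% in 143 endothelial-like and 0.179% in 16 cardiomyocyte-like barcodes. Mast cell or basophil-like barcodes gave 0.541% in heart and 0.592% in blood. These are shares of UMIs pooled over mice, with no error from replicates.

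Gla was also at different levels in dendritic cell-like cells of the organs, for which no comparison was set. It stood at 33.9, 15.8, 13.6 and 4.82 CPM in heart and 0, 1.92, 2.33 and 0 in blood, where 0 allows up to 6.33 and 15.3. Heart was higher in each mouse in these values, and the heart value of stroke replicate 2 lies below what a count of 0 allows in its blood.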
